A study of Mus musculus with 6 samples.

Results

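Genes for the lysosomal proton pump and for proteins of the lysosomal membrane were examined in wild-type mouse embryonic fibroblasts, cells of the connective tissue taken from embryos and grown in culture. The starved group was 3 arrays of RNA from fibroblasts starved for 6 h, and the control group was 3 arrays of RNA from fibroblasts kept in normal medium. The labels call the arrays biological replicates. They give neither what was withdrawn from the medium nor whether each replicate was a culture of its own, so p-values reflect the spread among these arrays, and it is not known which sources of variation that holds. The members were taken by gene symbol from a list of 37 genes, and 30 of them had a probe set that the platform annotation gives to that gene alone, among 12393 genes measured in all. They were 6 subunits of the membrane sector of the pump (V0), 8 of its cytosolic sector (V1) and 16 other genes. Atp6v0c, Cd63, Ostm1, Slc36a1, Slc36a4, Slc38a7 and Tmem55b had no such probe set and were not analysed here. Not every member is an integral membrane protein: Npc2 is a soluble protein of the lysosomal lumen, and the V1 and Lamtor proteins sit on the cytosolic face.

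The vacuolar ATPase acidifies lysosomes. Its V1 sector splits ATP and turns a shaft, and its V0 sector in the membrane carries protons inward, so both sectors must be joined for the pump to run. The same membrane holds heavily glycosylated proteins that line it, transporters that export the products of digestion, and the Ragulator complex of Lamtor proteins, which tethers the Rag GTPases and thereby the growth-promoting kinase complex mTORC1 when amino acids are plentiful. Many genes of lysosomal proteins carry a short palindromic promoter element, the CLEAR element, which is bound by TFEB and its relatives, transcription factors known to enter the nucleus during starvation.

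Levels below are log2 array signals, and differences are starved minus control on that log2 scale, with the standard error of the limma fit over all genes. "Rose" and "fell" are used of genes whose p-value, adjusted by the Benjamini-Hochberg method over all 12393 genes, was below 0.05. Several fibroblast markers were bright, with Col1a1, Col1a2, Col3a1, Vim, Dcn and S100a4 between 11.43 and 14.18 on every array. Lum, at log2 signals of 7.13 to 7.49, was less bright, and Thy1, at 4.56 to 5.02, was dim. Of 6 epithelial markers 1 rose (16.7%, against 22.1% of all genes) and 0 fell (against 22.0%). The risen one was Cdh1 (0.91), dim at mean log2 signals of 4.36 on starved and 3.44 on control arrays. Krt19 lay between 5.93 and 6.53. Among macrophage and blood cell markers, Ptprc and Adgre1 lay between 2.99 and 3.51, close to the floor of the arrays, while Csf1r, at 5.80 to 6.28, and Cd14, at 7.23 to 7.78, were higher. A total of 5463 genes (44.1%) were called, 22.1% as higher and 22.0% as lower in starved cells, so a share of called members near these values is no result about the members. The deposited values fix each array's overall distribution. The arrays carry probe sets for control RNAs that are usually added before labelling (poly-A spike-ins) and before hybridization (hybridization spike-ins). Poly-A centring, in which each array is set to its poly-A spike-ins, subtracts 0.43 from every log2 difference, and hybridization centring subtracts 0.19. The median log2 difference of all genes, -0.05 as deposited, becomes -0.47 and -0.24 under these centrings. Any smaller rise then lies below 0, and this is given beside each rise it touches. In RNA of whole cultures, fewer cells of a type and less RNA per cell cannot be told apart.

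The 30 measured members went both ways in starved fibroblasts. Of them 5 rose (16.7%, against 22.1% of all genes), 8 fell (26.7%, against 22.0%) and 17 did not pass, with a median log2 difference of -0.04, against -0.05 over all genes. The risen genes were Npc1, Cd68, Atp6v1b2, Scarb2 and Ctns. Scarb2 is counted by its brightest probe set, and its other probe set fell (-0.31). The fallen genes were Atp6v1h, Atp6v0a2, Lamtor2, Atp6v0e, Atp6v0b, Lamtor1, Atp6v0e2 and Lamp1. Starved and control arrays did not overlap for 21 members, 9 with starved arrays higher and 12 lower, where 54.0% of all genes had groups apart, 25.7% with starved arrays higher and 28.4% lower. The size of the changes was modest: the highest log2 difference was 0.90 for Npc1 and the lowest -0.65 for Atp6v1h.

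**Figure D1:**
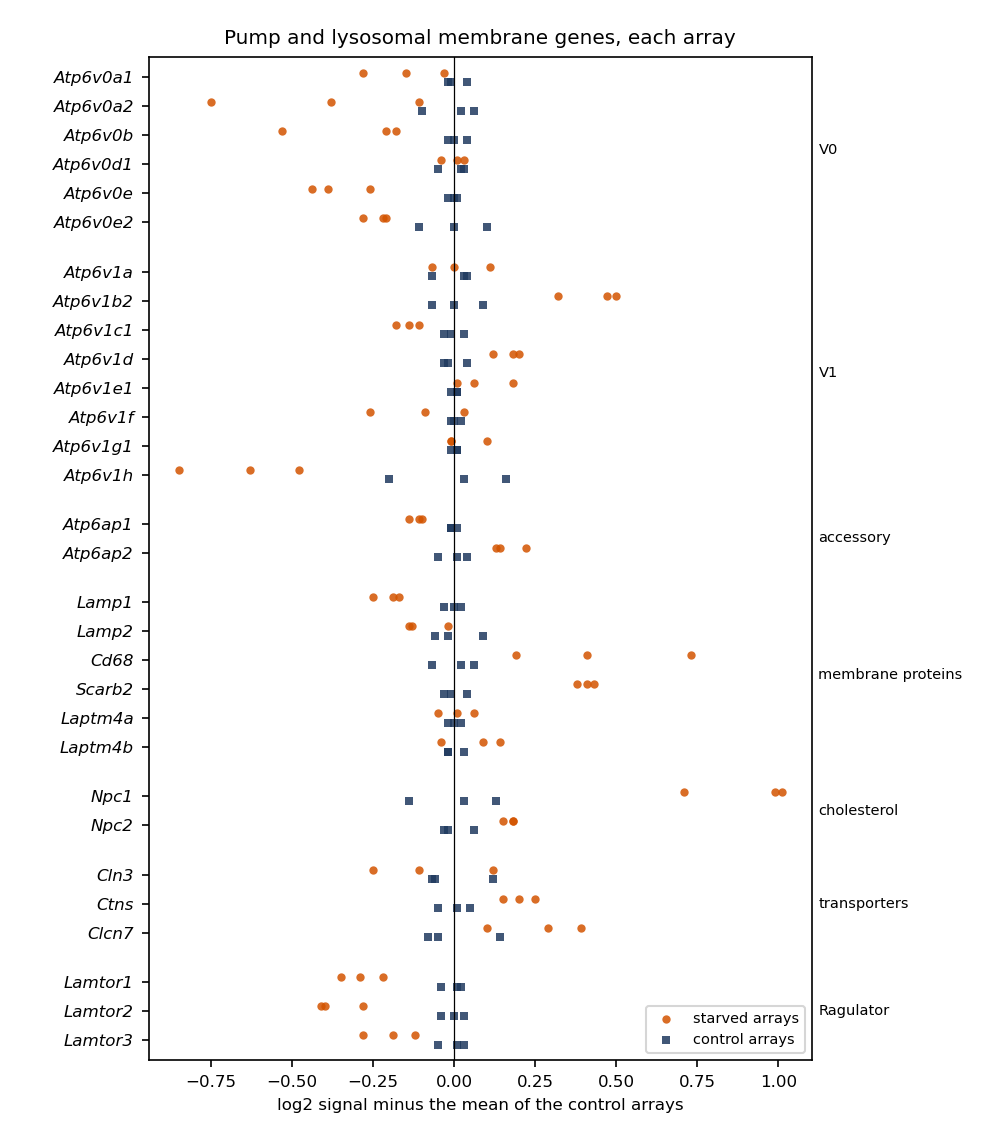
Log2 signal of each of the 30 measured members on each array, as the deviation from the mean of the 3 control arrays (horizontal axis), with starved arrays as circles above and control arrays as squares. Npc1, Scarb2 and Atp6v1b2 stand to the right on all 3 starved arrays and Atp6v1h, Lamtor2 and Atp6v0e to the left. Each gene is shown by its brightest probe set, and the other probe set of Scarb2 fell (-0.31). Under poly-A centring the starved circles move left by 0.43 on average, which takes the means of Scarb2 and Atp6v1b2 just below 0.

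The promoter windows of the members show which of them carry the E-box core that the CLEAR element is built on. RefSeq windows (GRCm38.p6, from 250 bases before to 50 bases after a gene start) were found for 28 of the 37 listed genes, in 33 windows. The core CACGTG, which reads the same on both strands, was present in 10 of the 33 windows (30.3%), in 10 genes, against 9.11% of the windows of all genes tested and 7.15% of all 32851 windows. All 17 cores in these windows lay within the longer motif TCACGTG, read on either strand, which 5.14% of the windows of all genes tested held. The full palindrome, the core with GT before it and AC after it, contains both shorter motifs and was found in the window of Cln3 alone among the members and in 0.477% of the windows of all genes tested. The stretches that follow are shown because these 6 genes were measured on the arrays and hold cores wholly upstream of the start. Each is written 5′ to 3′ on the strand of its gene, in lower case with every CACGTG core in capitals, and ends before the start of transcription.
Lamp1, chr8:13159080-13159160, plus strand: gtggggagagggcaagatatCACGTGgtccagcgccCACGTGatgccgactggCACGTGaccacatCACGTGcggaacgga
Atp6v0b, chr4:117887330-117887385, minus strand: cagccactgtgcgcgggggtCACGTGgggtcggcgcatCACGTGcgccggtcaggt
Lamtor1, chr7:101905749-101905794, plus strand: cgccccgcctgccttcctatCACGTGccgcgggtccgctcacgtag
Cln3, chr7:126583332-126583405, minus strand: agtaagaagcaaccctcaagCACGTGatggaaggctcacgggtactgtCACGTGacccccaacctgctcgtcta
Atp6v1a, chr16:44139365-44139410, minus strand: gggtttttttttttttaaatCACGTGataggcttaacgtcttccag
Clcn7, chr17:25133356-25133390, plus strand: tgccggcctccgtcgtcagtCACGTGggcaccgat

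Lamp1 held 4 cores in its window, first bases at -61, -45, -28 and -15 from the start, the most of any member. Atp6v0b held 2, at -36 and -18, and Cln3 2, at -149 and -121, of which the second is the centre of the full palindrome. Clcn7 and Slc36a1 also held 2 each, Clcn7 at -15 and 8 and Slc36a1 at -31 and -3. The core of Clcn7 at 8 lies past the start and is not in the stretch shown. Atp6v0d1, Atp6v0e and Slc38a7 held a core too. Of the 8 members that were measured and held a core, 0 rose, 4 fell and 4 did not pass. Over all genes 22.1% rose and 22.0% fell. The fallen members were Lamp1, Atp6v0b, Atp6v0e and Lamtor1, and Atp6v0d1, Atp6v1a, Cln3 and Clcn7 did not pass. The median log2 difference of the 8 was -0.14. Atp6v0b, Atp6v0d1 and Atp6v0e are V0 subunits, so these counts overlap with those of V0 below. The calls of Lamp1 and Atp6v0b were lost without control replicate 1, 2 or 3. Lamtor1 did not pass in the fit without probe sets that can bind several transcripts (limma adjusted p = 0.101). Clcn7 just missed the threshold (0.26, limma adjusted p = 0.0508). It was called higher in 6 of 14 alternatives without spike-in centring or a stricter threshold, and lay at -0.17 under poly-A centring. Of the 14 measured members with a window and no core, 3 rose, 2 fell and 9 did not pass, with a median log2 difference of 0.04. A match to these letters does not show that a factor binds there, and windows of this length leave out more distant sites.

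Of the 6 V0 subunits among the members, 4 fell in starved fibroblasts (66.7%, against 22.0% of all genes), 0 rose, and 2, Atp6v0a1 and Atp6v0d1, did not pass. A further V0 subunit outside the member list, Tcirg1, rose by 0.47 and is described with the other isoforms. The median log2 difference of the 6 was -0.27, against -0.05 over all genes. All 6 differences were at or below 0, and the starved arrays lay below all control arrays for 5 of the 6. The median of the 6 deviations from the control mean was -0.21, -0.17 and -0.34 on the 3 starved arrays. The count rests on few arrays. It was 1 of 6 without control replicate 1, and 2 of 6 without control replicate 2, control replicate 3 or starved replicate 3. It was 3 or 4 when another starved array was left out, and the medians lay between -0.31 and -0.21. Without probe sets that can bind several transcripts, Atp6v0b and Atp6v0e were not tested. Of the 4 V0 subunits left, 2 fell, with a median log2 difference of -0.19.

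Atp6v0e, a small subunit of the sector, had log2 signals of 11.19, 11.01 and 11.06 on the starved arrays, against 11.45, 11.43 and 11.46 on the control arrays. The groups were well apart, and the log2 difference of -0.36 (SE 0.07, adjusted p = 0.00256 in limma) kept its call in every leave-one-out fit. Its paralog Atp6v0e2 was much dimmer, at 4.96, 4.95 and 4.89 on starved arrays, against 5.17, 5.27 and 5.06 on control arrays, a log2 difference of -0.23 (SE 0.08, limma adjusted p = 0.0307). That call was lost without any of control replicates 1 and 2 and starved replicates 2 and 3 (adjusted p = 0.0582 to 0.128).

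Atp6v0b, a proteolipid of the rotating ring that carries the protons, had log2 signals of 9.61, 9.64 and 9.29 on starved arrays, against 9.82, 9.86 and 9.80 on control arrays. Every starved array was lower, starved replicate 3 most of all, and the log2 difference was -0.31 (SE 0.10, limma adjusted p = 0.0242). Its other probe sets gave -0.29 and -0.31 and were also called lower. All of its probe sets, the brightest included, are marked as able to bind several transcripts. Leaving out control replicate 1, 2 or 3 brought the adjusted p to 0.0556, 0.0696 or 0.0502, so the call was lost without any one of the control arrays.

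The large a subunit, which forms the path of the protons and is known to direct the pump to different membranes, comes in several forms. Atp6v0a2, known from the Golgi and endosomes, had log2 signals of 7.05, 7.32 and 6.68 on starved arrays, against 7.49, 7.33 and 7.45 on control arrays. The starved arrays spread widely and the highest of them lay just under the lowest control array. The log2 difference was -0.41 (SE 0.14, limma adjusted p = 0.0346), a call lost without control replicate 1 or 3 or starved replicate 1 or 3 (adjusted p = 0.0756 to 0.0863), with a difference of -0.24 without starved replicate 3. Of the dimmer probe sets of Atp6v0a2, one did not pass (log2 difference -0.17, limma adjusted p = 0.135 over all probe sets). The other had 5.92, 6.26 and 6.11 on starved arrays, against 6.86, 6.90 and 6.64 on control arrays, with a log2 difference of -0.71 (SE 0.11, limma adjusted p = 0.000673 over all probe sets). For Atp6v0a1, best known from neurons, the brightest probe set did not pass (log2 difference -0.16, SE 0.08, limma adjusted p = 0.14), 1 of 3 dimmer ones fell (-0.38), and the mean of its probe sets was called lower (-0.21). Atp6v0d1, which couples the rotor of V1 to the ring, did not differ detectably, with a 95% confidence interval of the log2 difference from -0.15 to 0.15.

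Subunits of the V1 sector had no common direction. Of the 8 measured, 1 rose (12.5%, against 22.1% of all genes), 1 fell (12.5%, against 22.0%) and 6 did not pass. Their median log2 difference was 0.02, against -0.05 over all genes. The single rise and the single fall were the same in each of the 6 leave-one-out fits. Whether V0 and V1 subunits differ as groups was not tested, because the members were chosen with results of these arrays known.

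Atp6v1h fell the most of all members. This subunit sits on the stalk of the pump and, in yeast, silences ATP splitting in V1 sectors that have come off the membrane. Its log2 signals were 8.45, 8.67 and 8.82 on starved arrays, against 9.46, 9.33 and 9.10 on control arrays. Replicates spread in both groups, yet all starved arrays lay below all control arrays, and the log2 difference was -0.65 (SE 0.12, 1.57-fold lower, limma adjusted p = 0.00114). No second probe set was available for it.

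Atp6v1b2, the non-catalytic nucleotide-binding subunit found in most tissues, went the other way. Log2 signals of 10.38, 10.35 and 10.20 on starved arrays stood above 9.97, 9.88 and 9.81 on control arrays, a log2 difference of 0.42 (SE 0.08, 1.34-fold, limma adjusted p = 0.00157), which is 0.24 under hybridization centring and -0.002 under poly-A centring. Another probe set rose as well (0.35) and a dim one did not pass (-0.25), so that the mean of its probe sets missed the threshold (0.17, adjusted p = 0.0871). Relative to Atp6v1h on the same array, Atp6v1b2 changed by 1.08 on the log2 scale, a value that no centring of arrays can alter. The pair was chosen as the V1 subunit that rose and the one that fell, so this is a description with no test.

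The remaining V1 subunits stayed within narrow bounds. Atp6v1a, the catalytic subunit, had a log2 difference of 0.02 (95% confidence interval -0.15 to 0.18). The rotor subunits Atp6v1d and Atp6v1f stood at 0.17 (SE 0.07, limma adjusted p = 0.0681) and -0.11 (SE 0.08). For Atp6v1d the starved arrays, at 10.06 to 10.14, lay above the control arrays, at 9.91 to 9.98. It was called higher with the dimmest 40% of genes left out, or by eBayes with trend and robust settings. Poly-A centring called it lower (-0.26, limma adjusted p = 0.0237). The peripheral stalk subunits Atp6v1e1 and Atp6v1g1 gave 0.08 and 0.02. Other probe sets gave -0.21 and 0.15 for Atp6v1e1, 0.07 and -0.12 for Atp6v1g1 and -0.16 for Atp6v1a, and none passed. Atp6v1c1, which clamps V1 onto V0 and is released when the sectors part, lay lower on all starved arrays but did not pass (-0.14, SE 0.07, limma adjusted p = 0.114).

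Of the accessory proteins of the pump, both of which take part in its assembly, neither passed. Atp6ap1 had a log2 difference of -0.11 (SE 0.06) and Atp6ap2, also known as the prorenin receptor, one of 0.16 (SE 0.07, limma adjusted p = 0.0815), and its 3 probe sets lay between 0.12 and 0.18.

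**Figure D2:**
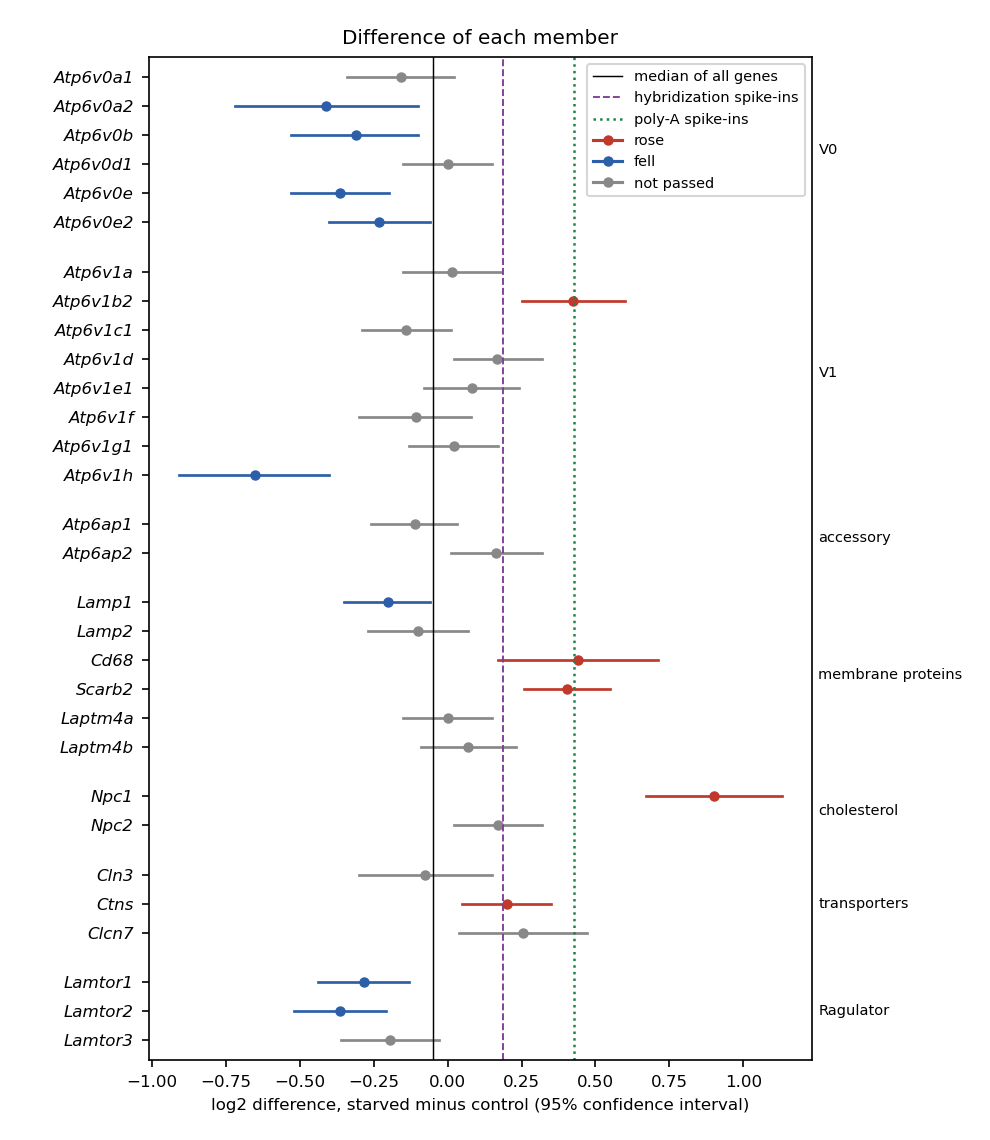
Log2 difference of each measured member, starved minus control, with its 95% confidence interval (horizontal axis), coloured by the limma call. The solid line marks the median of all genes (-0.05), the dashed and dotted lines the shift of the hybridization (0.19) and poly-A spike-ins (0.43), which becomes the new 0 when arrays are centred on them. The intervals of all 8 fallen members lie left of the solid line, and Npc1 is the member whose whole interval lies right of the dotted line.

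Genes outside the member list that serve the pump were read from lists written with earlier results of these data known. Among other forms of pump subunits 2 of 6 rose (33.3%, against 22.1% of all genes) and 0 fell (against 22.0%). Tcirg1, the a subunit known from osteoclasts and lysosomes, had log2 signals of 8.71, 9.05 and 8.78 on starved arrays, against 8.48, 8.36 and 8.28 on control arrays. All starved arrays were higher, with a log2 difference of 0.47 (SE 0.10, limma adjusted p = 0.00348), which is 0.28 under hybridization centring (adjusted p = 0.0224) and 0.05 under poly-A centring, where it did not pass. Relative to Atp6v0a2 on the same array it changed by 0.88, and relative to Atp6v0a1 by 0.63, on the log2 scale under any centring. These pairs too were chosen with the values known, and no test is given. Atp6v1g2, a stalk subunit known from brain, was dim and rose by 0.36, though it lay at -0.06 under poly-A centring. Atp6v0a4, Atp6v1b1, Atp6v1c2 and Atp6v1e2, forms known from kidney, other epithelia and testis, had mean log2 signals of 3.61 to 4.16 in both groups, in the dim part of the arrays.

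Of 6 measured factors that assemble or act on the pump 1 rose (16.7%), 3 fell (50%) and 2 did not pass. Over all genes 22.1% rose and 22.0% fell. Ccdc115, Vma21 and Tmem199, the mammalian relatives of the yeast factors that build V0 in the endoplasmic reticulum, were the 3 that fell. Ccdc115 had log2 signals of 6.30, 6.18 and 6.36 on starved arrays, against 7.15, 7.18 and 7.36 on control arrays (log2 difference -0.95, SE 0.08, limma adjusted p = 1.28e-05). Vma21 stood at 7.78, 7.74 and 7.96 on starved arrays, against 8.49, 8.50 and 8.52 on control arrays (-0.68, SE 0.08, limma adjusted p = 7.22e-05). Tmem199 differed less, by -0.37 (limma adjusted p = 0.00277). For each of these factors all starved arrays lay below all control arrays. The others on the list did not fall: Oxr1, a protein that binds the pump, rose by 0.37 (-0.06 under poly-A centring), and Dmxl1 (0.33) and Rogdi (-0.07), relatives of the yeast factors that rejoin V1 and V0, did not pass.

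**Figure D3:**
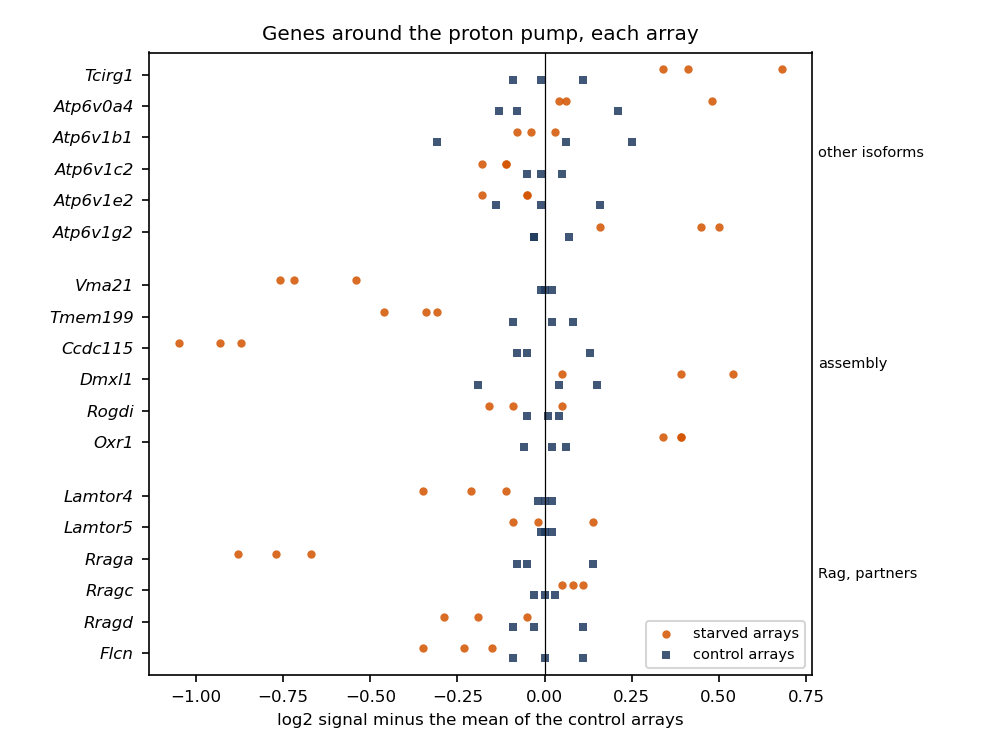
Log2 signal of other pump isoforms, pump assembly factors and Rag GTPases with their partners on each array, as the deviation from the mean of the 3 control arrays, with starved arrays as circles above and control arrays as squares. Ccdc115, Vma21, Tmem199 and Rraga lie to the left on all starved arrays and Tcirg1 to the right; the rise of Tcirg1 (0.47) is 0.05 under poly-A centring.

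Of the 3 Ragulator genes among the members, 2 fell (66.7%, against 22.0% of all genes), 0 rose and 1 did not pass. Their median log2 difference was -0.28. Of the Ragulator genes outside the member list, Lamtor4 fell by 0.22 and Lamtor5 did not pass (0.01). Lamtor2 had log2 signals of 10.09, 9.96 and 9.97 on starved arrays, against 10.37, 10.33 and 10.40 on control arrays, clearly apart (log2 difference -0.36, SE 0.07, limma adjusted p = 0.00191), and its second probe set fell as well (-0.25). Lamtor1, the subunit that anchors the complex in the membrane through its lipid tail, stood at 11.17, 11.10 and 11.04 on starved arrays, against 11.35, 11.40 and 11.41 on control arrays (-0.28, SE 0.07, limma adjusted p = 0.00755). Another of its probe sets also fell (-0.29), and the one not marked as binding several transcripts did not pass (-0.22, adjusted p = 0.101 in the fit without such probe sets). Lamtor3 lay lower on all starved arrays, at 9.11, 8.95 and 9.04, against 9.26, 9.24 and 9.18 on control arrays, but just missed the threshold (-0.20, SE 0.07, limma adjusted p = 0.0517).

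The Rag GTPases and their partners were read from a list written with earlier results of these data known. Of 6 measured genes 3 fell (50%, against 22.0% of all genes) and 0 rose (against 22.1%). Rraga, a GTPase that Ragulator holds at the lysosome, fell most, with log2 signals of 9.70, 9.49 and 9.60 on starved arrays, against 10.29, 10.32 and 10.51 on control arrays (log2 difference -0.78, SE 0.09, limma adjusted p = 6.06e-05). Flcn, which acts on the partner GTPases Rragc and Rragd, fell by 0.25 on the log2 scale. Lamtor4 was the other that fell, and Rragc (0.08), Rragd (-0.17) and Lamtor5 did not pass.

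Among 6 proteins that line or span the lysosomal membrane, 2 rose (33.3%, against 22.1% of all genes), Scarb2 and Cd68. Scarb2 rose with 1 of its 2 probe sets and fell with the other, as given below. Of the 6 proteins 1 fell (Lamp1, 16.7%, against 22.0%) and 3 did not pass. Lamp1, the most abundant of them in many cells, had log2 signals of 12.66, 12.68 and 12.60 on starved arrays, against 12.87, 12.85 and 12.82 on control arrays. The groups did not overlap, and the log2 difference of -0.20 (SE 0.07, limma adjusted p = 0.0304) lost its call without control replicate 1, 2 or 3 or starved replicate 3 (adjusted p = 0.0661 to 0.1). Lamp2, its relative with a part in chaperone-mediated autophagy, did not pass with any of its 4 probe sets, whose log2 differences ran from -0.23 to 0.06. Laptm4a and Laptm4b, small membrane proteins of late endosomes and lysosomes, gave 0.002 and 0.07 and did not pass.

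Scarb2, the receptor that carries glucocerebrosidase to the lysosome, was the member whose probe sets were called in opposite directions. The brighter one had log2 signals of 10.43, 10.45 and 10.40 on starved arrays, against 10.06, 10.01 and 9.99 on control arrays, and rose by 0.41 (SE 0.07, limma adjusted p = 0.000662), or 0.22 under hybridization and -0.02 under poly-A centring. The dimmer one had 9.28, 9.23 and 9.17 on starved arrays, against 9.53, 9.56 and 9.51 on control arrays, and fell by 0.31 (SE 0.07, limma adjusted p = 0.00603 over all probe sets). Both differences were many times the spread between replicates, and the mean of the probe sets was 0.05 (adjusted p = 0.556), so no direction can be given for the gene as a whole. Which transcript parts the probe sets read was not tested.

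**Figure D4:**
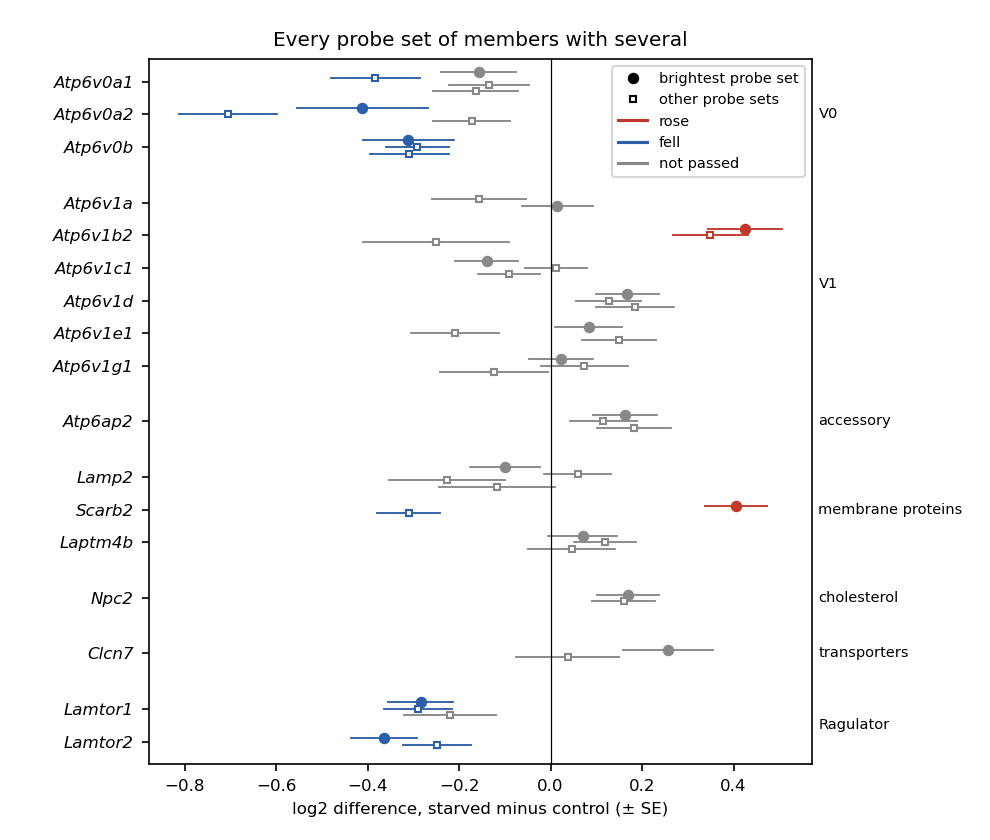
Log2 difference, starved minus control, of every probe set of the 17 members that have more than 1, with the standard error as a bar; filled circles are the brightest probe set, open squares the others, and colours give the limma call over all probe sets. Scarb2 has a risen (0.41, or -0.02 under poly-A centring) and a fallen probe set (-0.31), while the probe sets of Atp6v0b lie together at -0.31 to -0.29.

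Over the 61 probe sets of the members, 17 members had more than 1, and in 10 of these all probe sets had differences of the same sign. All probe sets had the same call in 12 of the 17. Besides Scarb2, no member had probe sets called in both directions.

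Cd68, a glycoprotein abundant in macrophages, was dim and rose. Its log2 signals were 5.80, 5.48 and 5.26 on starved arrays, against 5.09, 5.0 and 5.13 on control arrays, with a wide spread among starved arrays and a log2 difference of 0.44 (SE 0.12, limma adjusted p = 0.0137). Hybridization centring gave 0.25 (adjusted p = 0.0948) and poly-A centring 0.02, and neither passed. Of 10 other macrophage and blood cell markers measured 0 rose (against 22.1% of all genes) and 2 fell (20%, against 22.0%), Cd14 (-0.46) and Coro1a (-0.24). Several of the 10 lay near the floor of the arrays. The log2 of their summed signal was 8.57 to 8.64 on starved arrays, against 8.84 to 8.91 on control arrays, and Cd14 was the brightest marker in that sum. The part of such cells in the rise of Cd68 was not tested.

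Npc1, which moves cholesterol out of the lysosome, rose the most of all members. Its log2 signals were 7.93, 7.91 and 7.63 on starved arrays, against 6.95, 6.78 and 7.05 on control arrays. The gap between the groups was larger than the spread within either, and the log2 difference was 0.90 (SE 0.10, 1.87-fold, limma adjusted p = 6.76e-05). Npc1 was the only one of the 5 risen members that kept its call under poly-A centring (0.47, adjusted p = 0.000536). Npc2, which hands cholesterol to it, was far brighter. It was higher on all starved arrays, at 13.02, 13.02 and 12.99, against 12.81, 12.90 and 12.82 on control arrays. It did not pass (0.17, SE 0.07, limma adjusted p = 0.0621), and poly-A centring called it lower (-0.26, limma adjusted p = 0.0231).

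Of the 3 measured transporters and channels, 1 rose (33.3%, against 22.1% of all genes), 0 fell (against 22.0%) and 2 did not pass. Ctns, the exporter of cystine, had log2 signals of 6.85, 6.75 and 6.80 on starved arrays, against 6.61, 6.55 and 6.65 on control arrays (log2 difference 0.20, SE 0.07, limma adjusted p = 0.0373). The groups were apart, but the call was lost in 5 of the 6 leave-one-out fits (adjusted p = 0.0621 to 0.133), and the difference was 0.01 under hybridization and -0.23 under poly-A centring. Clcn7, an exchanger of chloride and protons, stood at 7.0, 7.29 and 7.19 on starved arrays, against 6.85, 7.04 and 6.82 on control arrays (0.26, SE 0.10, limma adjusted p = 0.0508). The groups overlapped, the difference was -0.17 under poly-A centring, and among the leave-one-out fits the call was reached without starved replicate 1 (adjusted p = 0.0171) or control replicate 2 (adjusted p = 0.0319). Cln3, the protein lost in juvenile Batten disease, did not pass (-0.08, SE 0.10).

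Further lysosomal membrane proteins were read from another list written with earlier results known. Of 19 measured 7 rose (36.8%, against 22.1% of all genes), 2 fell (10.5%, against 22.0%) and 10 missed the threshold. Their median log2 difference was 0.06. Tmem63a, an ion channel, rose by 1.00, Slc15a4, a transporter of histidine and peptides, by 0.93 and Slc29a3, a nucleoside transporter, by 0.83, and these kept their calls under both spike-in centrings (0.57, 0.50 and 0.40 with the poly-A set). Mcoln1, the calcium channel of the lysosome, had log2 signals of 9.23, 9.33 and 9.11 on starved arrays, against 8.88, 8.93 and 8.88 on control arrays, and rose by 0.33 (SE 0.08, limma adjusted p = 0.00575), though it lay at -0.10 under poly-A centring. Mfsd1 fell by 0.38 and Tmem192 by 0.28.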

How the data were processed

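Per the labels' protocols, biotin-labelled RNA of 6 samples was hybridised to short-oligonucleotide arrays. The authors deposited 1 log2 value per probe set and array. Per the submitters' processing notes these were made with affy and RMA (background correction, quantile normalization and probe-set summary, which equalise the arrays' distributions and compress dim genes). Of 22690 probe sets, 20380 with 1 annotated gene were used, and each gene took its brightest. Starved and control arrays, 6 in all, were compared by limma 3.58.1 under R 4.3.3 (lmFit, eBayes, two-sided), adjusted over 12393 genes. Dim genes were kept, and the number of arrays limits the precision. Array medians lay between 6.733 and 6.815. The limma fit was tested on simulated data with independent noise and few changed genes. The choice of probe sets, the scaling and the promoter steps were not. Members, lists, the rule to name all members plus up to 3 rises and 3 falls of each further list, and the alternatives were chosen with earlier results of these data known. Promoter windows came from RefSeq (GRCm38.p6). Same-numbered arrays did not deviate together (correlations of -0.022 to 0.002).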

Additional observations from a re-analysis of the deposited data

How the results depend on the processing

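With single arrays left out, 4541 to 5317 genes were called, 4 to 5 members rose and 4 to 9 fell, and the medians ran from -0.31 to -0.21 (V0), -0.02 to 0.05 (V1) and 0.027 to 0.062 (other members). Over 14 alternatives, those without spike-in centring or a stricter threshold, the calls of Atp6v0e, Atp6v1h, Cd68, Npc1 and Lamtor2 held wherever the gene was tested. The mean of probe sets left 3 members that rose and a V1 median of -0.04. Without probe sets that can bind several transcripts 4 members fell, with a V0 median of -0.19 over 4 genes and a median of 0.14 for the others. Leaving out the dimmest 40% of genes, or eBayes with trend and robust settings, gave 8 members that rose. A further quantile normalization and centring on array medians gave medians of -0.008 and -0.011 for the others. At an adjusted p below 0.01, 3 members rose and 4 fell. Centring on the poly-A spike-ins called 10181 genes, with 1 member that rose and 24 that fell and medians of -0.70 (V0), -0.41 (V1) and -0.39 (others). It put below 0 Atp6v1a (-0.41), Atp6v1b2 (-0.002), Atp6v1d (-0.26), Atp6v1e1 (-0.34), Atp6v1g1 (-0.40), Atp6ap2 (-0.26), Scarb2 (-0.021), Laptm4a (-0.42), Laptm4b (-0.36), Npc2 (-0.26), Clcn7 (-0.17) and Ctns (-0.23). Centring on the hybridization spike-ins gave 3 that rose and 14 that fell, with medians of -0.46, -0.17 and -0.15. Each centring subtracts 1 uncertain value per array, so its calls are not separate evidence for each gene. With the replicate number as a block 5274 genes were called, 5 members rose and 7 fell, with Lamp1 (adjusted p = 0.0514) and Ctns (0.0547) lost and Clcn7 gained (0.033). The causes were not tested. Arrays have no read depth, and signals near the floor hide changes.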

Other observations

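Enzymes of the lysosomal lumen, which the acid made by the pump activates, fell more often than they rose. Of 38 measured, on a list written with earlier results known, 6 rose (15.8%, against 22.1% of all genes), 15 fell (39.5%, against 22.0%) and 17 did not pass, with a median log2 difference of -0.13. Gusb, beta-glucuronidase, had mean log2 signals of 7.95 ± 0.09 on starved and 9.28 ± 0.01 on control arrays (SD, n = 3 each), a log2 difference of -1.34 (2.52-fold lower, limma adjusted p = 6.13e-07). The peptidase Ctsa fell by 0.60 and Sgsh, a sulfatase of heparan sulfate breakdown, by 0.62. Pla2g15, a phospholipase, rose by 0.96 and the cathepsin Ctsf by 0.75, and both also passed under poly-A centring (0.53 and 0.32). Gm2a, a cofactor of ganglioside breakdown, rose by 0.50, or 0.08 under that centring, where it did not pass.

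Among the transcription factors that bind the CLEAR element, Mitf had mean log2 signals of 7.62 ± 0.08 on starved and 7.0 ± 0.11 on control arrays (SD, n = 3 each) and rose by 0.62 (SE 0.08, limma adjusted p = 0.000154), or 0.20 under poly-A centring (adjusted p = 0.0755). Tfeb did not pass (0.17, SE 0.09, limma adjusted p = 0.159), and poly-A centring called it lower (-0.26, limma adjusted p = 0.0251). Only 3 of the 4 factors listed were measured, and Tfec, the remaining measured one, was dim and did not pass (0.21). These factors are known to be controlled by their place in the cell, which RNA levels do not show.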
